A study of Mus musculus with 2 samples.

Results

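Intestinal CD4+ T cells with a high level of the chemokine Ccl5 and at least 1 transcript of Cd7 were examined in single-cell RNA sequencing of IL-10-producing CD4+ T cells. The cells were chosen by measured values. They came from the small intestine library, had a mitochondrial share below 6%, Ccl5 at 1% or more of the unique molecular identifiers (UMIs, each counting 1 captured transcript), no UMI of Cd8a or Cd8b1 and at least 1 UMI of Cd7, and fewer than 4 UMIs summed over 5 cell cycle genes (Mki67, Top2a, Birc5, Cdk1 and 2810417H13Rik). The rule kept 374 of the 1474 intestinal cell barcodes, and of 3212 barcodes in the series. A further 517 intestinal cells met every other limit but had 0 Cd7 UMIs. These are called the Cd7-zero cells below, and the 374 are called the Cd7-positive cells.

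The series holds 1 small intestine library and 1 spleen library. Both came from mice that carry an IL-10 eGFP and a Foxp3 mRFP reporter, in which green fluorescence marks cells that make the regulatory cytokine IL-10 and red fluorescence marks regulatory T cells. The mice were 8 to 16 weeks old, were given 15 µg of anti-CD3 antibody in each of 2 injections, at day 0 and day 2. Cells were taken 4 h after the last injection. IL-10-producing CD4+ cells were sorted, Foxp3+ cells included, so every cell described here carries both reporters, the antibody treatment and the IL-10 gate. The number of mice pooled and the share of cells from the epithelium and the lamina propria are not given in the sources used here. The intestinal library held 5693395 UMIs with a median of 3619 per cell, the splenic library held 11103530 with a median of 5533, and the libraries shared 0 barcodes. With 1 library per tissue there is no replicate. All intervals below are exact 95% intervals that cover counting error only, not the spread between cells or mice.

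CD7 is a transmembrane receptor of the immunoglobulin superfamily on T cells and natural killer cells. T cells that settle in the intestinal epithelium carry integrin alphaE (CD103, encoded by Itgae), which pairs with integrin beta7 and binds E-cadherin on epithelial cells, and many store granzymes, the proteases of cytotoxic granules. AMICA1 (also named JAML) is a junctional adhesion molecule that binds CXADR on epithelial cells. CCL5 is a chemokine made by activated and memory T cells.

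The label of CD4+ cells was checked against lineage genes. Cd4 stood at 443 CPM (UMIs of a gene after scaling the group's total to 1000000) in the Cd7-positive cells and at 502 CPM in the Cd7-zero cells. It stood at 124 CPM in 119 intestinal cells with at least 1 UMI of both Cd8a and Cd8b1, which met the mitochondrial and cell cycle limits, had no Ccl5 limit and are called the Cd8 cells below. A Cd4 UMI was seen in 78.3% of the Cd7-positive cells (73.8 to 82.4%), 76.0% of the Cd7-zero cells (72.1 to 79.6%) and 39.5% of the Cd8 cells (30.7 to 48.9%). With every cell thinned to 2000 UMIs, the expected shares were 58.8%, 60.9% and 19.6%, after 38, 82 and 2 shallower cells were left out. The Cd8 cells came through the same CD4 sort, and whether their Cd4 UMIs are free RNA, mixed droplets or their own transcripts was not tested. Cd3d, Cd3e and Cd3g, the invariant chains of the T cell receptor complex, were within 1.06-fold between the Cd7-positive and Cd7-zero cells. Cd3g, for instance, stood at 1824 and 1728 CPM.

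Markers of other cells were at or near 0 in the Cd7-positive cells. Of 6 natural killer and innate lymphoid markers 4 were at 0, among them Ncr1 and Tyrobp, and the list summed to 3 UMIs among 1413576. The 12 epithelial markers summed to 22 UMIs, with Epcam the most abundant at 11, and Krt20 and Vil1 were at 0. The 6 B and plasma cell markers analysed here summed to 22 UMIs against 6 in the Cd7-zero cells. Of 8 myeloid markers 5 were at 0, among them Lyz2 and C1qa, and Cst3, which many cell types express, held 162 of the 165 UMIs. The 5 stromal and mast cell markers summed to 11 UMIs, all from Pecam1. Foxp3 had 2 UMIs, in 2 of the 374 cells. Genes of the alpha beta and gamma delta receptor chains were not analysed here.

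Cd7 (chromosome 11, 121036747 to 121039418, minus strand) was unevenly spread. The 374 cells held 1084 Cd7 UMIs, or 767 CPM, with a median of 2 per cell and a highest value of 22. Of these cells, 166 (44.4%) had exactly 1 Cd7 UMI and 125 had 3 or more. If every Ccl5-high cell had held Cd7 at the same rate per UMI, a Poisson distribution over their depths would leave 291 cells at 0, where 517 were observed. These are the values by which the cells were chosen and are given as a description. At the other limits, 6 of the cells lay just above the 1% limit of Ccl5 and 7 further cells with Cd7 lay between 0.75 and 1%, with Gzma at 15893 and 31295 CPM. Between 5 and 6% of mitochondrial UMIs there were 5 cells inside the limit, and between 6 and 7% there were 4 outside it. With 3 cell cycle UMIs there were 2 cells inside, and with 4 there were 3 outside.

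The Cd7-positive cells were 42.0% of the 891 Ccl5-high cells (38.7 to 45.3%). Among the 223 shallowest of these cells the share was 35.9% (29.6 to 42.5%), and among the 223 deepest it was 49.3% (42.6 to 56.1%). Thinned to 2000 UMIs, the expected share was 32.3% of 771 cells. By the same measure it was 88.8% of the Cd8 cells, and 10.5% of the Ccl5-low cells, which met the mitochondrial, cell cycle and Cd8 limits but had Ccl5 below 1%. Unthinned, 94.96% of the Cd8 cells and 16.9% of the Ccl5-low cells had a Cd7 UMI, at median depths of 4058 and 3686 UMIs against 3526 in the Ccl5-high cells. Cd7 stood at 1787 CPM in the Cd8 cells and 99.0 CPM in the Ccl5-low cells. How much free RNA contributed to cells with a single Cd7 UMI was not tested.

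**Figure D1:**
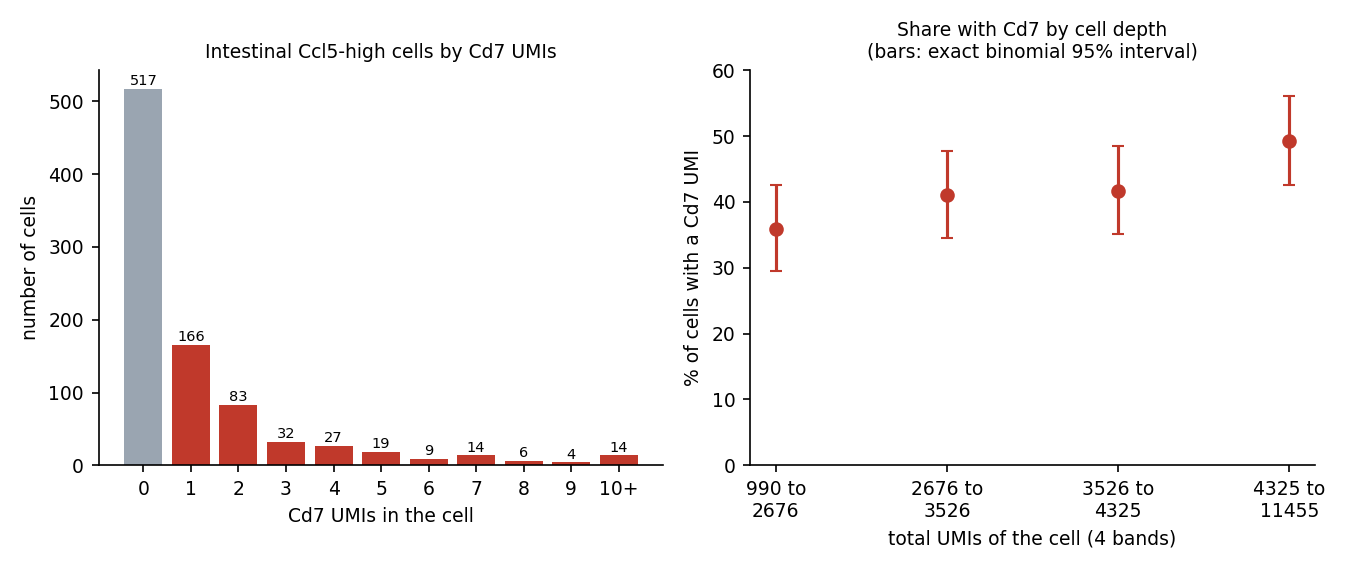
Left, number of intestinal Ccl5-high cells (y axis) by the number of Cd7 UMIs in the cell (x axis); the grey bar is the 517 Cd7-zero cells and the red bars are the 374 Cd7-positive cells. Right, percent of Ccl5-high cells with a Cd7 UMI in 4 bands of cell depth, with exact binomial 95% intervals; the share is 35.9% in the shallowest band and 49.3% in the deepest.

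Depth was close between the groups that are compared. The median was 3672 UMIs and 1429 genes in the Cd7-positive cells and 3439 UMIs and 1409 genes in the Cd7-zero cells, a ratio of 1.07 for UMIs and 1.01 for genes. Mitochondrial genes took 1.93% and 1.90% of UMIs, and ribosomal protein genes took 19.6% and 19.1%. Ccl5, which the rule used, stood at 61185 and 60352 CPM. To hold depth level, the Cd7-zero cells were also weighted to the share of Cd7-positive cells in 5 strata of depth, and the resulting ratio is called depth-standardised.

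The comparison asked which other genes differed between Ccl5-high cells with and without Cd7. Among 3730 genes with at least 100 UMIs over both groups, without the rule's own genes, 60 were at least 1.5-fold higher in the Cd7-positive cells, which is 1.61% of the genes, and 98 were at least 1.5-fold lower, which is 2.63%. Most genes were close to even, with a median ratio of 0.984 and 5th and 95th percentiles of 0.715 and 1.32. Of the 60 genes, 53 also passed 1.5-fold by the depth-standardised ratio, as did 82 of the 98. The balance of the directions depended on the total used: with mitochondrial genes, ribosomal protein genes, Ccl5, Gzma and Gzmb out of the totals, 72 genes were higher and 70 lower. These are descriptions of 1 library, with no test.

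**Figure D2:**
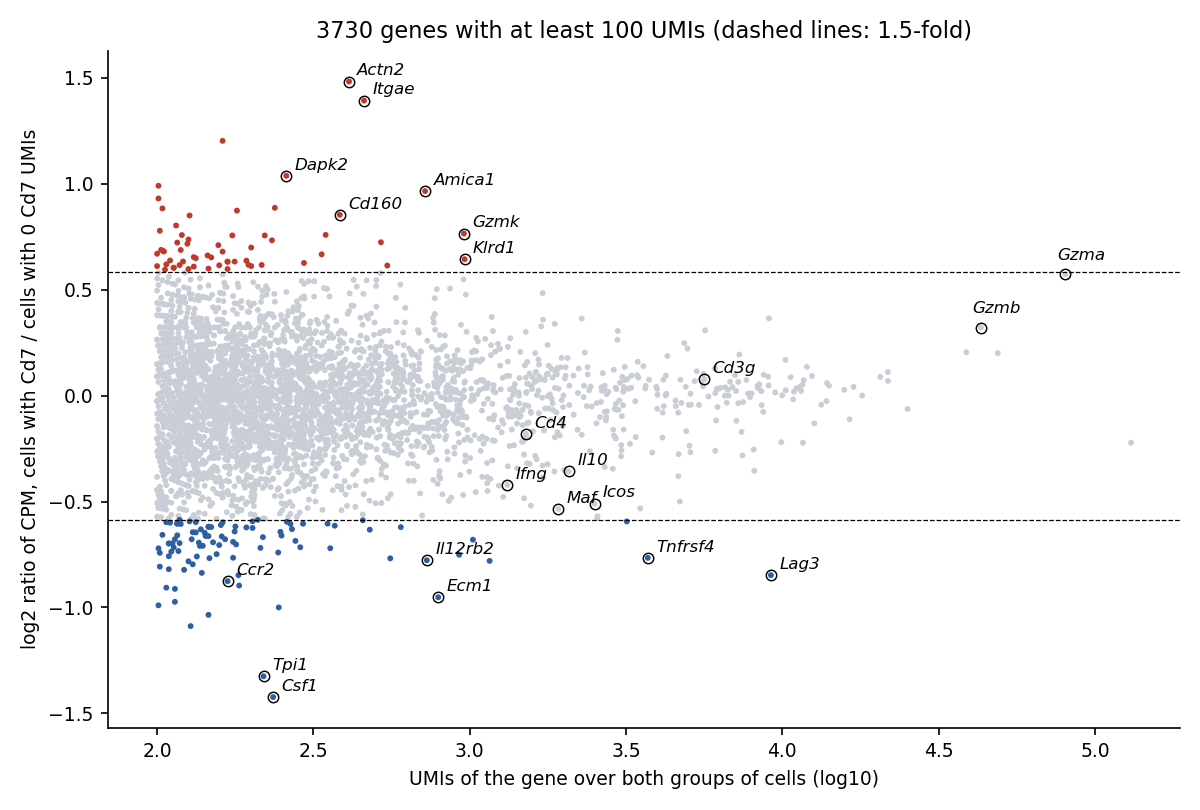
Each point is 1 of the 3730 genes, with its UMIs over both groups on a log10 x axis and the log2 ratio of CPM in the Cd7-positive to the Cd7-zero cells on the y axis. Red points are the 60 genes at least 1.5-fold higher, blue points the 98 at least 1.5-fold lower, dashed lines mark 1.5-fold, and circled points are labelled genes; Actn2 and Itgae stand highest, and Csf1 and Tpi1 lowest.

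A pair of epithelial adhesion genes stood among the highest ratios. Itgae (chromosome 11, 73090583 to 73147446, plus strand, mm10) stood at 220 CPM in the Cd7-positive cells and 83.8 CPM in the Cd7-zero cells, a ratio of 2.63 (2.15 to 3.22). An Itgae UMI was seen in 46.8% and 20.5% of the cells, or 33.5% and 14.4% at 2000 UMIs. Amica1 (chromosome 9, 45079183 to 45108534, plus strand) stood at 311 and 159 CPM, a ratio of 1.95 (1.68 to 2.28). Both genes were therefore seen in more of the Cd7-positive cells and at about 2-fold or higher levels, with intervals that lay above 1.5. Itgb7, the partner chain of Itgae, stood at 295 and 208 CPM, a ratio of 1.42 (1.23 to 1.63) that did not reach 1.5-fold. Of 15 measured genes of the epithelial adhesion and retention list, Itgae and Amica1 passed 1.5-fold and 0 were past it on the lower side, beside 1.61% and 2.63% of all genes. The median ratio was 0.966 against 0.984 over all genes. Amica1 was a marker of these cells from the start and the list was drawn up with earlier results of these data known, so the count is a description. Rgs1, a regulator of chemokine receptor signalling and the most abundant gene of the list, was at 1729 and 2072 CPM (ratio 0.835, 0.793 to 0.879). The gut-homing chemokine receptor Ccr9 was at 240 and 260 CPM (ratio 0.923, 0.800 to 1.07) and the retention gene Cd69 at 302 and 265 CPM (ratio 1.14, 0.998 to 1.30).

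Cytotoxic granule genes were mixed. Gzma, which encodes granzyme A (chromosome 13, 113093825 to 113100981, minus strand), was the most abundant, at 30939 CPM in the Cd7-positive cells and 20802 CPM in the Cd7-zero cells, a ratio of 1.49 (1.47 to 1.51). Gzma took a median of 2.69% of a Cd7-positive cell's UMIs and 1.55% of a Cd7-zero cell's, and the 10th to 90th percentiles, 0.300 to 5.48% and 0.0635 to 4.42%, overlapped broadly. Gzmb was at 15280 and 12230 CPM (ratio 1.249, 1.226 to 1.273). Gzmk, encoding granzyme K, was at 391 and 229.7 CPM (ratio 1.70, 1.49 to 1.94) and was the single gene of 11 measured that passed 1.5-fold, beside 1.61% of all genes. Gzma lay at the limit, and its ratio ran from 1.343 with the rule applied after thinning to 1.619 with at least 2 Cd7 UMIs required. The pore-forming protein gene Prf1 had 36 and 43 UMIs, too few for the gene minimum. Nkg7, a granule membrane protein gene, was at 3780 and 4139 CPM (ratio 0.913), and Srgn, encoding the granule proteoglycan serglycin, was at 2214 and 2831 CPM (ratio 0.782). The list's median ratio was 1.198.

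Receptors shared with natural killer cells were measured in 5 of 19 list genes, and 2 of the 5 passed 1.5-fold, beside 1.61% of all genes tested. Cd160, a receptor for HVEM, stood at 161 and 88.8 CPM (ratio 1.81, 1.47 to 2.23). Klrd1, which encodes the CD94 chain, stood at 379 and 242 CPM (ratio 1.56, 1.37 to 1.78). Cd96, a receptor for nectin-family ligands, was at 190 and 132 CPM (ratio 1.43, 1.197 to 1.71), while Klrc1, encoding an NKG2 partner of CD94, was at 79.2 and 79.8 CPM (ratio 0.993, 0.768 to 1.28). Reads of Klrc1 and its near-identical neighbour Klrc2 may be split between them. The list's median ratio was 1.43, against 0.984 over all genes. Cd244, below the gene minimum, had 15 UMIs in the Cd7-positive cells and 2 in the Cd7-zero cells. Its ratio was 9.38, with an interval of 2.18 to 84.5. Other list genes below the minimum went in both directions. Klrc2 had 40 and 30 UMIs (ratio 1.667, 1.013 to 2.771) and Cd226 had 33 and 24 (ratio 1.719, 0.9856 to 3.039). Klrk1 had 4 and 10 UMIs and Crtam 3 and 5, with ratios below 1 and intervals that included 1. Klre1 was level, at 4 and 5 UMIs. Klrb1c, Klrb1b and Klrg1 had at most 2 UMIs in either group. The adaptors Fcer1g and Tyrobp had 0 UMIs in both groups. The adaptor Hcst, the most abundant gene of the list and 1 of the 5 measured, was level at 839 and 883 CPM (ratio 0.950, 0.880 to 1.03).

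The highest ratio of the 3730 genes belonged to Actn2, which encodes the actin cross-linker alpha-actinin 2, at 201 and 71.9 CPM (ratio 2.80, 2.26 to 3.47). Its level in the Cd7-zero cells was also below the 171 CPM of the Ccl5-low cells. Among the 15 highest ratios were further Dapk2, a death-associated protein kinase gene, at 114 and 55.5 CPM (2.05-fold), and Tesc, encoding the calcium-binding protein tescalcin, at 100.5 and 54.3 CPM (1.85-fold). AA467197 (2.30-fold), Ccdc30 (1.99-fold), Lzts1 (1.91-fold), Chst11 (1.85-fold), Eif2a (1.83-fold), Slc28a2 (1.80-fold), Mospd1 (1.75-fold) and Acbd4 (1.72-fold) completed them, each on fewer than 200 UMIs over both groups, so their intervals were wide. For Acbd4 the interval ran from 1.14 to 2.60. Of the 60 genes, 10 had at least 300 UMIs: besides Actn2, Itgae, Amica1, Cd160, Gzmk and Klrd1 these were Acp5, Rgs10, Aplp2 and S100a6, named here after their values were seen, with ratios from 1.53 to 1.69.

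Among co-inhibitory and TR1-associated genes, Lag3 was past 1.5-fold lower, and most others measured had ratios below 1 that did not reach 1.5-fold. Lag3, an inhibitory receptor for MHC class II (chromosome 6, 124904361 to 124911705, minus strand), stood at 2002 CPM in the Cd7-positive cells and 3602 CPM in the Cd7-zero cells, a ratio of 0.556 (0.531 to 0.581). It took a median of 0.123% of a Cd7-positive cell's UMIs and 0.250% of a Cd7-zero cell's. A Lag3 UMI was present in 91.4% and 94.6% of the cells, or 85.0% and 93.6% at 2000 UMIs. Of 15 measured genes of the TR1 and co-inhibitory list, Lag3 alone passed 1.5-fold, beside 2.63% of all genes tested, and 13 had ratios below 1. The median ratio was 0.802 against 0.984 over all genes, most of which also lay below 1. Il10, on whose reporter the cells were sorted, was at 564 and 723 CPM (ratio 0.780, 0.713 to 0.853), and the transcription factor gene Maf, an activator of Il10, was at 483 and 700 CPM (ratio 0.690, 0.628 to 0.758). Ctla4 was at 1251 and 1629 CPM (ratio 0.768, 0.724 to 0.815). Pdcd1, encoding PD-1, was at 94.8 and 77.0 CPM (ratio 1.23, 0.963 to 1.58) and Havcr2, encoding TIM-3, at 114 and 123 CPM (ratio 0.923, 0.748 to 1.14). Below the gene minimum, Tigit had 23 and 58 UMIs (ratio 0.496, 0.292 to 0.816) and Itgb1 had 17 and 19 (ratio 1.12, 0.546 to 2.27).

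Of the Treg list, costimulatory receptor genes had ratios below 1. Tnfrsf4, encoding OX40, was at 840 and 1429 CPM (ratio 0.588, 0.549 to 0.630), and Icos was at 638 and 909 CPM (ratio 0.702, 0.646 to 0.762). Tnfrsf18, encoding GITR, was at 785 and 997 CPM (ratio 0.787, 0.730 to 0.849). Of 6 measured genes 5 had ratios below 1, Tnfrsf4 passed 1.5-fold on the lower side, and Ikzf2, the gene of the transcription factor Helios, passed it on the higher side at 70.7 and 41.9 CPM (ratio 1.69, 1.24 to 2.31). The list's median ratio was 0.756 against 0.984 over all genes, of which 2.63% were past 1.5-fold lower and 1.61% higher.

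Th1 genes were mixed. Il12rb2, the inducible chain of the IL-12 receptor, was at 164 and 281 CPM (ratio 0.584, 0.497 to 0.683), and Il18r1, a chain of the IL-18 receptor, was at 65.1 and 105 CPM (ratio 0.622, 0.479 to 0.803). Il12rb1, the other IL-12 receptor chain, was at 50.9 and 33.4 CPM (ratio 1.53, 1.07 to 2.19), and no longer past 1.5-fold when depth-standardised (1.495). Ifng was at 349.5 and 468 CPM (ratio 0.747, 0.667 to 0.836), with no Ifng UMI in 44.7% and 43.1% of the cells. Tbx21, encoding the Th1 factor T-bet, was at 41.0 and 34.5 CPM (ratio 1.19, 0.815 to 1.73). Over the 10 measured genes 1 was past 1.5-fold higher and 2 lower, beside 1.61% and 2.63% of all genes, with a median ratio of 1.01. Il17a, the defining cytokine gene of Th17 cells, had 1 UMI in each group, against 195 CPM in the Ccl5-low cells.

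Of the 3730 genes, Csf1, the macrophage colony-stimulating factor, had the lowest ratio, at 38.2 and 102 CPM (ratio 0.373, 0.270 to 0.508), or 0.156 with at least 2 Cd7 UMIs required. A Csf1 UMI was seen in 8.29% and 16.6% of the cells. Tpi1, a glycolytic enzyme gene with near-identical copies in the genome, followed at 37.5 and 93.9 CPM (ratio 0.399, 0.287 to 0.547). Ecm1, an extracellular matrix protein gene expressed by activated helper T cells, stood at 164 and 317.5 CPM (ratio 0.517, 0.442 to 0.603), and Relb, a subunit of NF-kappaB, at 29.0 and 59.4 CPM (ratio 0.488, 0.332 to 0.707). Ccr2, a receptor for monocyte-attracting chemokines, was at 36.1 and 66.2 CPM (ratio 0.545, 0.384 to 0.763), or 0.2605 with at least 2 Cd7 UMIs required. The other 9 of the 15 lowest were Eprs, Perp, Shoc2, Fam20a, Nsun2, Ttc9c, Nop56, Fubp1 and Mt1, with ratios from 0.471 to 0.560. Of the 98 genes, 15 had at least 300 UMIs. Besides Ecm1, Lag3, Il12rb2 and Tnfrsf4 these were Ifitm3, Ier5, Mmd, Ifitm2, Ramp3, Cux1, Ptms, Fam169b, Mcm6, Pim1 and Nfkb1, named here after their values were seen, with ratios from 0.582 to 0.665. The near-identical Ifitm2 and Ifitm3 may share reads.

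Of 12 measured glycolysis genes, Tpi1 and Hk2 were past 1.5-fold lower, beside 2.63% of all genes, and the median ratio was 0.921. Hk2, which encodes a hexokinase, was at 29.0 and 43.6 CPM and its depth-standardised ratio of 0.708 was not past 1.5-fold. None of the measured genes passed 1.5-fold among 13 genes of the T cell receptor complex and its proximal signalling (median ratio 1.04), 10 interferon-stimulated genes (1.14), 11 MHC class I presentation genes (1.02), 7 heat shock genes (0.970), 8 T cell receptor response genes (0.885), 7 AP-1 genes (0.872), 6 lineage factor genes (1.06), 2 chemokine ligand genes (1.03) or 2 Th17 genes (1.252). By the depth-standardised ratio, the inhibitory receptor gene Cd5 of the T cell receptor list (1.458, depth-standardised 1.564) and the immunoproteasome gene Psmb10 of the MHC class I list (1.494, depth-standardised 1.589) did pass it. Among the T cell receptor response genes, Nfkbia, the NF-kappaB inhibitor gene, was lowest at 885 and 1280 CPM (ratio 0.691, 0.645 to 0.741), while Nr4a1 was at 135 and 127 CPM (ratio 1.06, 0.870 to 1.29). The chemokine genes Ccl3 and Ccl4 were at 337 and 304 CPM (ratio 1.11, 0.977 to 1.26) and at 1416 and 1497 CPM (ratio 0.946, 0.892 to 1.003). Of 5 chemokine receptor genes Ccr2 alone was past 1.5-fold, beside 2.63% of all genes lower. Of 2 measured naive and recirculation genes, Il7r was past 1.5-fold lower at 31.1 and 48.7 CPM, Satb1 had a ratio of 0.715, and the median ratio was 0.677.

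The levels of the Cd7-positive cells were set beside those of the Cd8 cells and the Ccl5-low cells of the same library. For some of the genes named above, but not all, the Cd7-positive cells lay between the Cd7-zero and the Cd8 cells. Itgae stood at 83.8, 220 and 403 CPM in the Cd7-zero, Cd7-positive and Cd8 cells in turn, Gzma at 20802, 30939 and 47997 CPM, Cd160 at 88.8, 161 and 311 CPM, and Klrd1 at 242, 379 and 1048 CPM. In the other direction, Lag3 stood at 3602, 2002 and 1453 CPM, Tnfrsf4 at 1429, 840 and 157 CPM, and Il12rb2 at 281, 164 and 39.1 CPM. The counting intervals of the 3 groups did not overlap for any of these 7 genes, although they do not cover the spread between cells. Other genes did not follow this order. Rgs10 stood at 127 CPM in the Cd7-zero, 209 CPM in the Cd7-positive and 128 CPM in the Cd8 cells, Il12rb1 at 33.4, 50.9 and 18.7 CPM, Slc28a2 at 29.4, 53.1 and 25.5 CPM, Eif2a at 41.3, 75.7 and 57.9 CPM, and Mt1 at 54.3, 30.4 and 138 CPM. Actn2 was as high in the Cd7-positive cells (201 CPM) as in the Cd8 cells (206 CPM), and Amica1 stood at 159, 311 and 385 CPM, with intervals of the Cd7-positive (282 to 341) and Cd8 cells (336 to 438) that met at their ends.

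**Figure D3:**
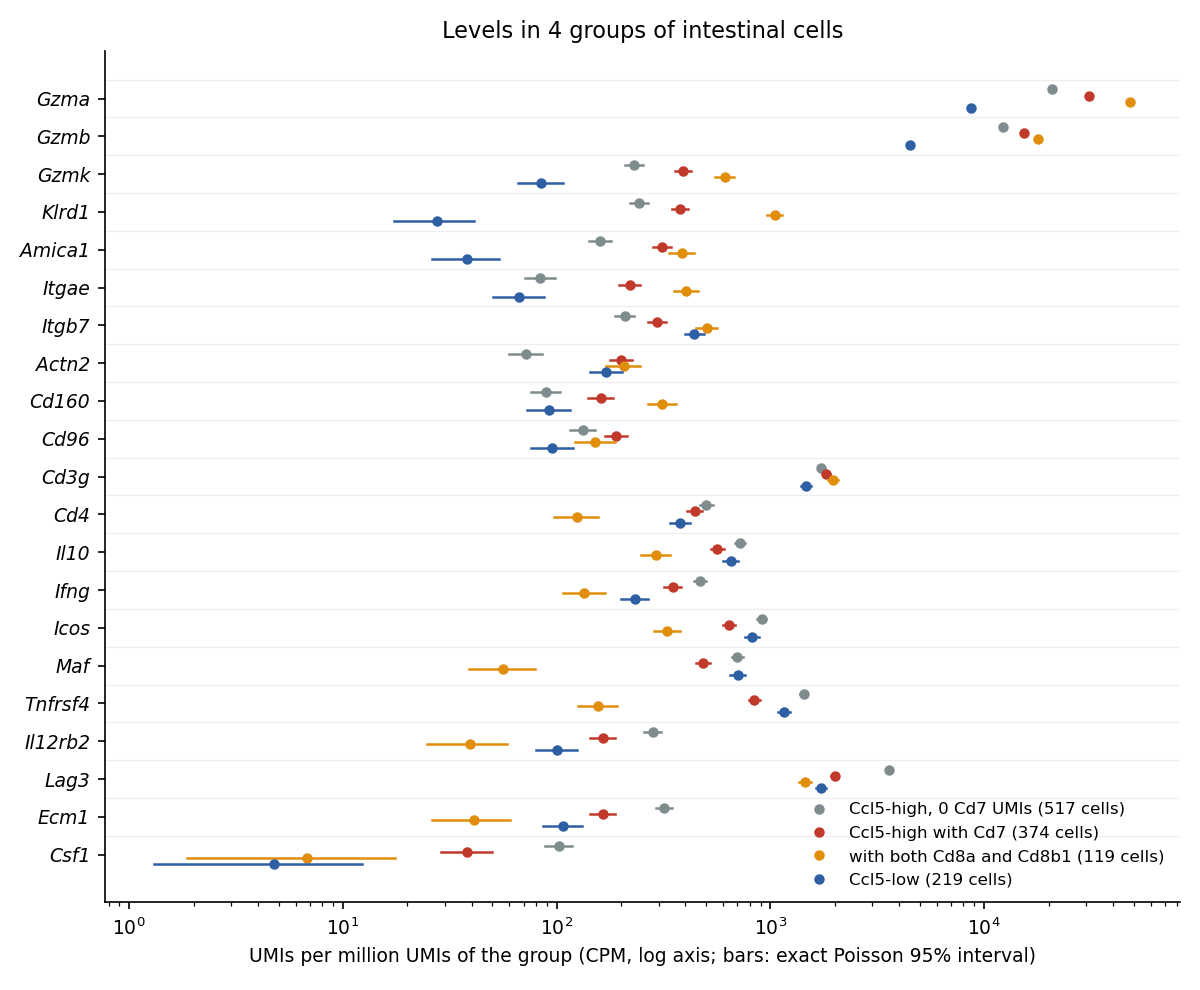
Levels of 21 genes in CPM (log x axis) in 4 groups of intestinal cells: Cd7-zero (grey), Cd7-positive (red), with both Cd8a and Cd8b1 (orange) and Ccl5-low (blue), with exact Poisson 95% intervals as bars. The red points lie between the grey and orange points for Itgae, Gzma, Cd160, Klrd1, Lag3, Tnfrsf4 and Il12rb2, while Cd4 lies near the grey points.

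The Cd7-positive and Cd8 cells were compared over 2436 genes with at least 100 UMIs over both groups. Of these genes, Podnl1 (92.7 and 6.81 CPM, ratio 13.6, 5.19 to 50.7) and Maf (483 and 56.2 CPM, ratio 8.60, 6.07 to 12.6) differed most toward the Cd7-positive cells. Tnfrsf4, Snx2, Timp2, Runx1, Il12rb2, Il18rap, Ecm1 and Cdkn1a followed, with ratios from 5.37 down to 3.92. Maf was thus closer to its 700 CPM in the Cd7-zero cells. Most of these genes were not particular to the Cd7-positive cells. The Cd7-zero cells held Podnl1 at 100 CPM, Snx2 at 234 CPM, Timp2 at 131 CPM, Il18rap at 99.0 CPM and Cdkn1a at 342 CPM. Tnfrsf4, Il12rb2 and Ecm1 were also higher there, while Runx1 was lower, at 55.5 against 79.2 CPM. Toward the Cd8 cells the most unlike of the 2436 genes were Calcb (21.9 and 128 CPM, ratio 0.172), Car2 (28.3 and 145 CPM, ratio 0.196) and Klrc2 (28.3 and 136 CPM, ratio 0.208). Mt1, Lgals3, Klrd1, Klrc1, S100a6, Sult2b1 and Zfp512 had ratios from 0.221 to 0.408. The genes Cd8a and Cd8b1 themselves defined these groups.

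Among the Cd7-positive cells, levels differed with the amount of Cd7. In cells with 1, 2 and 3 or more Cd7 UMIs, Amica1 stood at 234, 300.5 and 405 CPM, against 159 CPM in the Cd7-zero cells. Gzma stood at 27244, 31006 and 35215 CPM, and Itgae at 191, 213 and 258 CPM. The Itgae intervals of these classes overlapped (158 to 229, 163.5 to 272 and 216 to 306 CPM). Lag3 stood at 2379, 2178 and 1461 CPM, against 3602 CPM at 0 Cd7 UMIs, and Tnfrsf4 at 1100, 949 and 475 CPM, against 1429 CPM. Il10 was at 721, 550 and 388 CPM, against 723 CPM, so cells with 1 Cd7 UMI were level with the Cd7-zero cells. Cd4 was at 440, 456 and 438 CPM and did not follow this order. The classes hold 166, 83 and 125 cells with median depths of 3550, 3673 and 3991 UMIs, so depth was also higher with more Cd7 UMIs. In cells with exactly 1 Cd7 UMI the counting intervals of Itgae (158 to 229 CPM), Gzma and Lag3 (2258 to 2506 CPM) did not overlap those of the Cd7-zero cells. These intervals do not cover the spread between cells. The classes are split by the value that chose the cells, so their levels are given as a description.

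**Figure D4:**
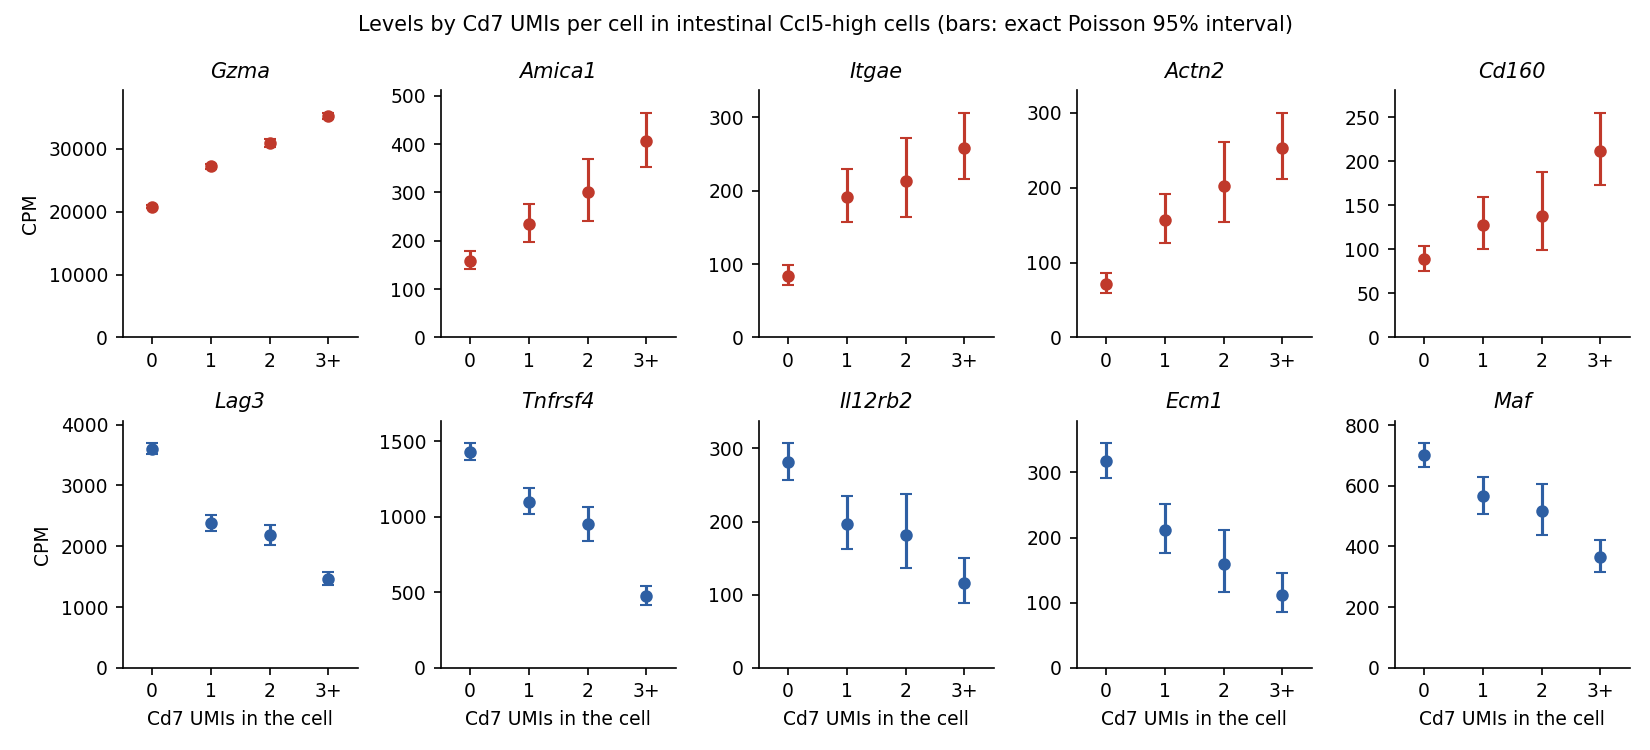
Levels in CPM (linear y axes from 0) of 10 genes in intestinal Ccl5-high cells with 0, 1, 2 and 3 or more Cd7 UMIs, with exact Poisson 95% intervals. Gzma, Amica1, Itgae, Actn2 and Cd160 (red) are lowest at 0 Cd7 UMIs, and Lag3, Tnfrsf4, Il12rb2, Ecm1 and Maf (blue) are highest there, Lag3 going from 3602 to 1461 CPM.

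The number of higher-side genes seen in a cell was counted as a description, since the 5 genes were chosen for being higher in the Cd7-positive cells. Of Amica1, Itgae, Cd160, Klrd1 and Gzmk, a Cd7-positive cell showed a median of 2, and 69 of the 374 cells (18.5%) showed 4 or 5, while 26 (6.95%) showed 0. In the Cd7-zero cells the median was 1, with 24 cells (4.64%) at 4 or 5 and 118 (22.8%) at 0. At 2000 UMIs the expected mean number was 1.77 in the Cd7-positive, 1.06 in the Cd7-zero and 2.72 in the Cd8 cells. The 175 Cd7-positive cells with an Itgae UMI held Amica1 at 351 CPM (308 to 398), Gzma at 35900 CPM and Lag3 at 1481 CPM (1391 to 1574). The 199 without an Itgae UMI held Amica1 at 272 CPM (235 to 313), Gzma at 26179 CPM and Lag3 at 2502 CPM (2388 to 2621). Median depths were 3788 and 3569 UMIs. The same split of the Cd7-zero cells, 106 with and 411 without an Itgae UMI, gave Amica1 at 228 and 140 CPM, Gzma at 29170 and 18463 CPM and Lag3 at 2864 and 3809 CPM, in the same order for these 3 genes. Tnfrsf4 was at 712 and 964 CPM with and without Itgae in the Cd7-positive cells and at 1502 and 1408 CPM in the Cd7-zero cells, where the intervals overlapped. Cd160 was at 170.5 and 151 CPM in the former, with overlapping intervals, and at 158 and 69.5 CPM in the latter. Maf did not differ beyond its intervals between the Cd7-positive cells with and without Itgae, at 478 and 488 CPM.

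Cell-to-cell spread among the Cd7-positive cells was measured by the Fano factor, the variance of a gene's UMIs over its mean, which is 1 for counting error alone. With the 336 cells of at least 2000 UMIs thinned to that depth, Gzma had the highest value outside the rule's genes, 26.9 on a mean of 59.0 UMIs per cell, beside 33.1 for Ccl5. The cytoskeletal gene Actb (25.2), the chemokine gene Ccl4 (20.3), the nuclear RNA Malat1 (14.8), Gzmb (10.7), Lag3 (5.92), the growth factor gene Areg (5.28), Tmsb4x (5.27), Ifi27l2a (4.89) and Plac8 (4.42) followed. The median over genes was 1.02. This spread was not particular to the Cd7-positive cells. In 435 Cd7-zero cells at the same depth, the values were 33.6 for Gzma, 21.0 for Actb, 14.8 for Ccl4, 12.0 for Gzmb, 5.98 for Lag3 and 7.65 for Areg, with a median of 1.02. Ccl4 illustrates the spread, with 0 UMIs in 35.0% of the cells and up to 5.55% of the UMIs of a cell.

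Ratios were also taken at like depths. Within 4 bands of cell depth, the Itgae ratio of the Cd7-positive to the Cd7-zero cells was 3.05, 2.11, 2.81 and 2.96 from the shallowest to the deepest band, and the Lag3 ratio was 0.549, 0.448, 0.619 and 0.529. The intervals of Itgae, Actn2, Cd160, Gzma, Lag3, Tnfrsf4, Il12rb2 and Ecm1 left out 1 in every band. The Gzma ratio differed with depth, at 1.21, 1.33, 1.42 and 1.51, and was 1.37 when depth-standardised. Intervals that reached 1 were those of Amica1 in the shallowest band (1.44, 0.950 to 2.16), Klrd1 in the shallowest (1.45, 0.939 to 2.23) and the deepest (1.12, 0.907 to 1.39), Maf in the third (0.889, 0.744 to 1.06) and Csf1 in the second (0.598, 0.296 to 1.14).

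**Figure D5:**
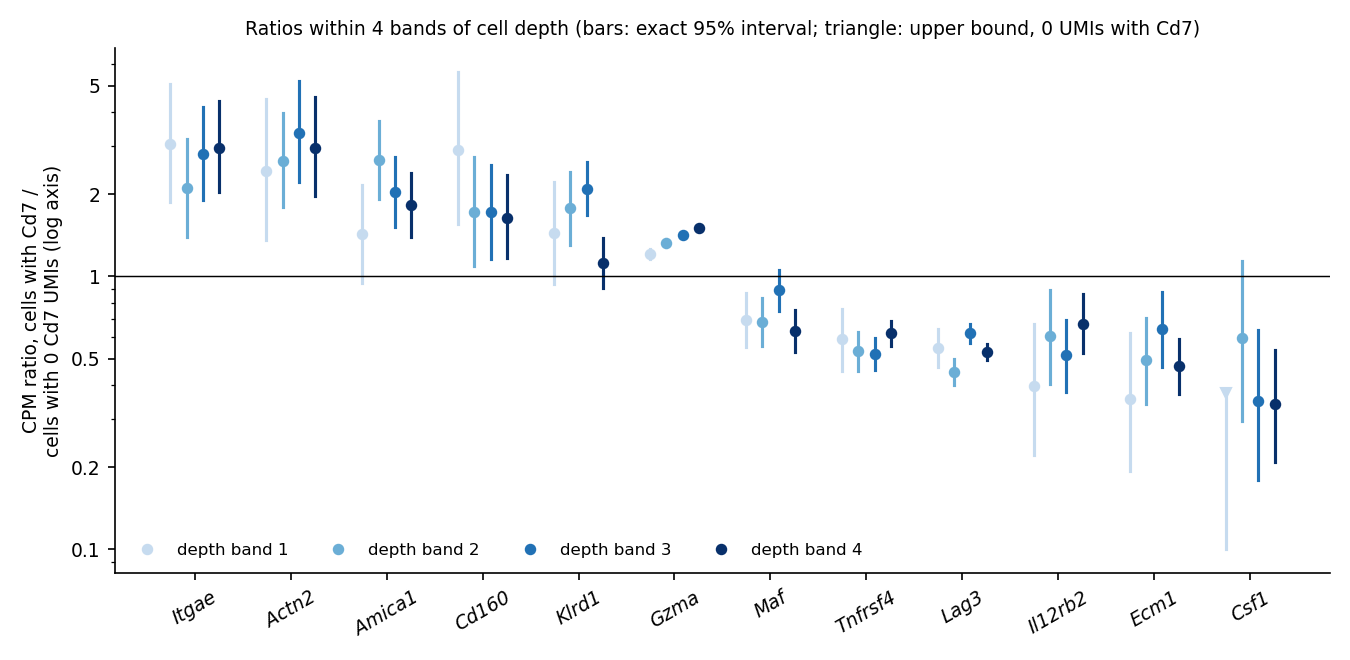
Ratio of CPM in the Cd7-positive to the Cd7-zero cells (log y axis) for 12 genes within 4 bands of cell depth, light to dark from shallow to deep, with exact 95% intervals. Itgae, Actn2, Amica1, Cd160, Klrd1 and Gzma lie above 1 in every band and Maf, Tnfrsf4, Lag3, Il12rb2, Ecm1 and Csf1 below it, although some intervals cross 1, as for Klrd1 in the deepest band; the triangle is an upper bound where Csf1 had 0 UMIs.

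The differences were also present when both groups were limited to cells with at least 1 Cd4 UMI, 293 Cd7-positive and 393 Cd7-zero cells. There Itgae stood at 231 and 84.5 CPM (ratio 2.73, 2.19 to 3.43), Amica1 at 319 and 151 CPM (ratio 2.11, 1.78 to 2.51), Gzma at 31501 and 21030 CPM (ratio 1.498, 1.475 to 1.521) and Lag3 at 2083 and 3762 CPM (ratio 0.554, 0.527 to 0.581). These ratios were as large as in all the cells.

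In the spleen, the same rule kept 21 cells with Cd7 and 81 without, of 1738 barcodes. The splenic share of Ccl5-high cells with Cd7 was 20.6% (13.2 to 29.7%), or 11.7% at 2000 UMIs. Tissue and library cannot be told apart in what follows. Among genes with at least 1 splenic UMI, Gzma had the highest ratio between the tissues, at 30939 CPM in the intestinal and 189 CPM in the splenic Cd7-positive cells, a ratio of 164 (110 to 255). Areg, encoding the epithelial growth factor amphiregulin, stood at 209 CPM in the intestine and had 0 UMIs in the spleen, with an exact lower limit of 7.16 for the ratio, which is 8.86 against a floor of 3 UMIs over the splenic group. Itgae and Cd69, marks of tissue-resident T cells, had 1 UMI each in the splenic cells, with ratios of 27.9 (4.97 to 1106) and 38.3 (6.84 to 1518). Ube2h, Rcbtb2, Osgin1, Elovl6, Ecm1 and Dapk2 also had 0 splenic UMIs. Several of these levels were shared by the intestinal Cd7-zero cells, with Areg at 279.5 CPM, Ecm1 at 317.5 CPM, Elovl6 at 86.0 CPM and Ube2h at 88.3 CPM. Gzma, Itgae and Dapk2 were lower in the Cd7-zero cells, at 20802, 83.8 and 55.5 CPM. Csf1 was lower in the intestinal Cd7-positive cells than in the splenic ones, at 38.2 against 551.5 CPM (ratio 0.0693, 0.0476 to 0.1002). S100a6, Irf8, Ccl4, Ccl3, Eea1, Tnip3, Serpina3g, Mif and Ptms were lower too, with ratios from 0.107 to 0.303. Ccl4 and Ccl3 stood at 1497 and 304 CPM in the intestinal Cd7-zero cells, near their 1416 and 337 CPM in the Cd7-positive cells.

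The sequences before the start site are shown for 2 of the marker genes, Amica1 (Jaml in the RefSeq promoter table) and Gzma, which were both higher with Cd7. Each line gives the 250 bases before the gene's start, 5′ to 3′ on the gene's strand in GRCm38.p6, at chr9:45078933-45079182 (plus strand) and chr13:113100982-113101231 (minus strand). Capitals mark matches to the RUNX core, searched as TGTGGT and TGCGGT on both strands.
Amica1: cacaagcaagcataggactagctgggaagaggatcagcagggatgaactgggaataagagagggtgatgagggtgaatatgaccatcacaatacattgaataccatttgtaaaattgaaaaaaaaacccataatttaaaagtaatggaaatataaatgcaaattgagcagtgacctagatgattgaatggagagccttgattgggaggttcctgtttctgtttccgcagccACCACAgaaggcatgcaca
Gzma: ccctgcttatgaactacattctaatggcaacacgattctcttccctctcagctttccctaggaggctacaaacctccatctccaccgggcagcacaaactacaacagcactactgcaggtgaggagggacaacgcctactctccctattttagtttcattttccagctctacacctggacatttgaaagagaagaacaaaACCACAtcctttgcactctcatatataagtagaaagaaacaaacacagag
Both windows held 1 match, on the strand opposite to the gene, and 18.6% of 32851 promoter windows of this length held at least 1. A match of these letters is a description and not a binding site. Among RUNX genes in the cells, Runx3 stood at 265 and 262 CPM in the Cd7-positive and Cd7-zero cells (ratio 1.01, 0.881 to 1.16), and Runx1 at 79.2 and 55.5 CPM (ratio 1.43, 1.08 to 1.89).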

How the data were processed

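Sorted IL-10-producing CD4+ T cells of small intestine and spleen were sequenced as 1 droplet library each. The authors deposited raw UMI counts per gene and cell barcode, made with Cell Ranger on mm10, with 28009 genes listed per library. Cell Ranger and Trimmomatic are named in the submitters' processing notes with no version. The deposited counts were used with no cell filter other than the rule. Counts were summed over the cells of a group and divided by the group's total (CPM). Ratios carry exact conditional binomial intervals, levels exact Poisson intervals and shares Clopper-Pearson intervals, at 95%, and cover counting error only. No test was run, since each tissue has 1 library. Thinned shares are expectations over hypergeometric draws of 2000 UMIs. No doublet caller was run, and cells with over 2 times the median UMIs were left out as an alternative. The cells and gene lists were chosen with earlier results of these data known. Genes were named if they were markers, in the lists, among the 15 highest or lowest ratios, the 10 highest Fano factors, or the 10 most unlike in either direction against the Cd8 or splenic cells. Of the list genes, 12 were not analysed here. Gene positions come from GENCODE vM21, matched by Ensembl identifier. Intervals and thinning were checked on simulated data. Python 3.11.15, numpy 2.4.6 and scipy 1.17.1 were used. One item is not reported here.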

Additional observations from a re-analysis of the deposited data

Results flagged for a closer look

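The contrast between Ccl5-high cells with and without Cd7 was taken in the spleen as well, with 21 and 81 cells at median depths of 6047 and 3887 UMIs. Of 38 listed or named genes past 1.5-fold in the intestine, 3 were past it in the opposite direction in the spleen and 2 in the same direction, each with intervals that left out 1. Over all 158 genes past it in the intestine, 8 were opposite and 2 the same. The difference between the tissues was not tested. Klrd1 was higher with Cd7 in both, with a splenic ratio of 2.64 (1.44 to 4.82). Csf1 was lower with Cd7 in the intestine (ratio 0.373) and higher in the spleen, at 551.5 and 195 CPM (ratio 2.83, 1.998 to 4.01). Perp, a p53 effector gene, had an intestinal ratio of 0.5001 and a splenic ratio of 2.34 (1.28 to 4.24), on 23 and 27 splenic UMIs. Gzmk had an intestinal ratio of 1.70 and a splenic ratio of 0.393 (0.188 to 0.743), on 11 and 77 splenic UMIs.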

How the results depend on the processing

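Across 13 alternatives that recompute gene ratios, 47 genes were followed, and none of the called ratios changed sign: of 611 values 578 stayed within the interval reported above and 33 moved outside it. Ccl3, which was not past 1.5-fold, turned from 1.11 to 0.9407 with Ccl5 of at least 2%. With at least 2 Cd7 UMIs it was at 0.9325. Of the 30 genes with the highest and lowest ratios, 26 were past 1.5-fold in all 13. Acbd4 was past it in 11 (lowest 1.366), Chst11 in 12 (lowest 1.355), Nop56 in 12 (highest 0.755) and Fubp1 in 12 (highest 0.714). Klrd1 was at 1.431 with the rule applied after thinning. Gzma, at 1.487, was past 1.5-fold with 4 alternatives: Ccl5 of at least 2% (1.504), at least 2 Cd7 UMIs (1.619), totals without abundant genes (1.529) and centring on the median gene (1.512). With at least 2 Cd7 UMIs the Cd7-positive cells numbered 208, or 28.7% of the Ccl5-high cells left. There 171 of 3206 genes (5.33%) were at least 1.5-fold lower and 76 (2.37%) higher, and Csf1 was at 0.156 and Ccr2 at 0.2605. With the rule applied after thinning to 2000 UMIs the share was 33.0%. A gene minimum of 50 UMIs gave 158 genes higher and 255 lower of 5548 (2.85% and 4.60%). With 1 UMI in each group there were 1250 and 1562 of 10786 (11.6% and 14.5%). With 300 UMIs there were 10 and 15 of 1409 (0.710% and 1.07%). The 2-fold limit gave 4 and 4 of 3730. Other Ccl5, mitochondrial and cell cycle limits, leaving out deep cells or cells with Foxp3, and limiting to cells with Cd4, an alternative chosen after seeing the data, kept both counts within 1.5 times. Leaving out cells with gamma delta receptor UMIs was not run, since those genes were not analysed here. No paired analysis was possible because each tissue has 1 library and the comparison lies within one of them. Genes under 100 UMIs were outside the counts, and the ratios given for Cd244 and for splenic genes rest on few UMIs, with wide intervals.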

Other observations

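A further 85 intestinal cells within the mitochondrial and cell cycle limits, with no Ccl5 limit, had a UMI of either Cd8a or Cd8b1 but not both, and a Cd7 UMI was seen in 71.8% of them (61.0 to 81.0%). They entered no comparison. Transcripts of the reporters were almost absent from the Cd7-positive cells, with 2 UMIs of eGFP and 1 of mRFP, although the cells were sorted on the eGFP signal and held Il10 at 564 CPM. No Il10 UMI was seen in 30.5% of the Cd7-positive and 23.8% of the Cd7-zero cells.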
